A study of Rattus norvegicus with 8 samples.

Results

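Aldehyde dehydrogenases are the enzymes that oxidise aldehydes to the matching acids, and the liver arrays held 8 of their genes, Aldh1a1, Aldh1l1, Aldh3a1, Aldh2, Aldh5a1, Aldh6a1, Aldh7a1 and Aldh3a2. Their members were taken as the probe sets, other than control probe sets, whose only gene symbol in the platform's annotation is one of these 8 names. This gave 11 of 8740 probe sets, and all 11 were bright enough to enter the fit. The 8 genes were chosen by name from results of the same D3T against vehicle comparison, so the signals and calls below describe the family and are no independent evidence about it. The annotation holds 1 further gene of the family, Aldh1a2, which is no member. Its signal ran from 6.89 to 35.4, with 2 vehicle and 3 D3T arrays at or below the floor of 20.3 used here, and it was not tested.

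Liver RNA came from 8 male Fischer 344 rats, each on an array of its own (version A of Affymetrix's Rat Genome U34 design), and the labels give the age as 6 without a unit. The 4 D3T rats were given the dithiolethione D3T by gavage at 0.3 mmol per kg body weight, dissolved in saturated sucrose, once daily on days 1, 3 and 5. The 4 vehicle rats received 0.2 ml of that sucrose alone. Vehicle replicates 1, 3 and 4 are labelled with the same days, and no days are given for vehicle replicate 2. All rats ate AIN 76A chow. D3T is a sulfur heterocycle known to raise detoxification enzymes through the transcription factor Nrf2, and the design asks which liver transcripts differ after it.

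The family divides by place and substrate. In the cytosol of hepatocytes, ALDH1A1 oxidises retinaldehyde and aldehydes from lipid peroxidation, ALDH3A1 prefers aromatic and medium-chain aldehydes, and ALDH1L1 oxidises formyltetrahydrofolate to tetrahydrofolate and carbon dioxide. In mitochondria, ALDH2 clears acetaldehyde made from ethanol, ALDH5A1 and ALDH6A1 finish the breakdown of GABA and of valine, and ALDH7A1, which is also found in the cytosol, acts in lysine breakdown. ALDH3A2, anchored in membranes of the endoplasmic reticulum and peroxisomes, oxidises long-chain fatty aldehydes. In rodents Aldh3a1 is a classical target of the aryl hydrocarbon receptor and is known for low expression in untreated liver.

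The starts of Aldh1a1 and Aldh1l1 are shown because these were the members with higher signal after D3T. Each window holds 250 bases before and 50 after the RefSeq start in GRCr8, on the plus strand, with capitals marking CCAAT on either strand (ATTGG where it lies on the other strand). The Aldh1a1 window is chr1:227537370-227537669 and the Aldh1l1 window is chr4:124616970-124617269.
Aldh1a1: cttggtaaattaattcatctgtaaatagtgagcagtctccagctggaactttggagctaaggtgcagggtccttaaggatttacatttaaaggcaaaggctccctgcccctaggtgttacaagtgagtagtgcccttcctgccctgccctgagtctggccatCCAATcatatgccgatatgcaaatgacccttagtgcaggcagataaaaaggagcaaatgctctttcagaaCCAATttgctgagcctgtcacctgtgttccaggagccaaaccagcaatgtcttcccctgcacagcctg
Aldh1l1: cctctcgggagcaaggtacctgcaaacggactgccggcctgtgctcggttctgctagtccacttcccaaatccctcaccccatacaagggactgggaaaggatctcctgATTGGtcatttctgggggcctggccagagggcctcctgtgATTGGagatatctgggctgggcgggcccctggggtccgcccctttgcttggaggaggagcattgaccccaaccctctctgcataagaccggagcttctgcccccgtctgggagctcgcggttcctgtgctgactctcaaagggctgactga

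CCAAT occurred 2 times in each of these windows, at -88 and -18 from the Aldh1a1 start and at -141 and -101 from the Aldh1l1 start, counted to the leftmost base of each match. Of 33469 promoter windows of 300 bases in the same table, 37.5% held it on either strand. CCAAT was not particular to these members. The windows of Aldh6a1 and Aldh7a1 held 3 matches each and that of Aldh3a2 held 1, while that of Aldh5a1 held none. The core of the antioxidant response element, TGACNNNGC, was searched on both strands and was not in either window, and 12.1% of all windows held it. The xenobiotic response element core, GCGTG, was not in either window, against 29.7% of all windows on either strand. None of the 6 member windows in the table held TGACNNNGC. GCGTG was found in the windows of Aldh7a1, with 1 match, and Aldh3a2, with 2. A TGACNNNGC match could share its last GC with a GCGTG match, which did not arise in these windows, and a missing match says only that these letters are not in these 300 bases. Aldh3a1 and Aldh3a2 are neighbours on chromosome 10 of that assembly, with 0 protein-coding genes starting between them.

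The arrays had been scaled to nearly equal 2% trimmed means, from 500.8 to 501.0, and correlations of log2 signals between arrays ran from 0.930 to 0.968 over probe sets. Arrays give a signal and no count, so precision was limited by the 4 arrays per group. Hepatocyte markers were present, with summed signals of 179669 to 274173 in vehicle and 232145 to 322019 in D3T over 7 genes. Of these only Fgb passed, as lower. In bulk liver RNA, fewer cells of a type and less RNA per cell cannot be told apart. The summed signal of 5 Kupffer cell markers was 4309 to 4596 in vehicle and 3081 to 3938 after D3T, and that of 5 blood-lineage markers 11002 to 15536 and 7473 to 10392, without overlap in either list. The Kupffer cell genes did not move as one: of 4 tested, C1qb passed as lower and Cd14 as higher. None of the 4 blood-lineage genes tested passed in either direction. The part of these shifts in the members' values was not tested. The actin 3'/5' signal ratio, a measure of RNA integrity, was 1.45 to 1.59 in vehicle and 1.17 to 1.47 after D3T (exact two-sided permutation test, p = 0.0571 over 70 assignments). The same ratio for Gapdh was 1.7 to 2.18 in vehicle and 1.43 to 2.0 after D3T (exact two-sided permutation test, p = 0.114).

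Aldh1a1 and Aldh1l1, both of the cytosol, were higher after D3T, 4.38-fold and 2.40-fold, and no member passed as lower with limma (2 probe sets were lower at an unadjusted p under 0.05). The higher ones were 2 of the 11 member probe sets. Over the whole array, 10.7% of 5244 probe sets had a limma adjusted p under 0.05, 4.2% as higher and 6.48% as lower. All D3T arrays lay above all vehicle arrays for 2 of the 11 member probe sets and below them for another 2, where 7.89% and 11.3% of the tested probe sets did so. The median log2 fold change was 0.24 over the 11 and 0.02 over all probe sets tested. With 1 probe set per gene, the brightest tested, it was 0.04 over the 8 genes and 0.03 over all 3150. Fold changes were positive for 7 members' probe sets and negative for 4. Since the members were proposed from this comparison, nothing is read from these shares.

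**Figure D1:**
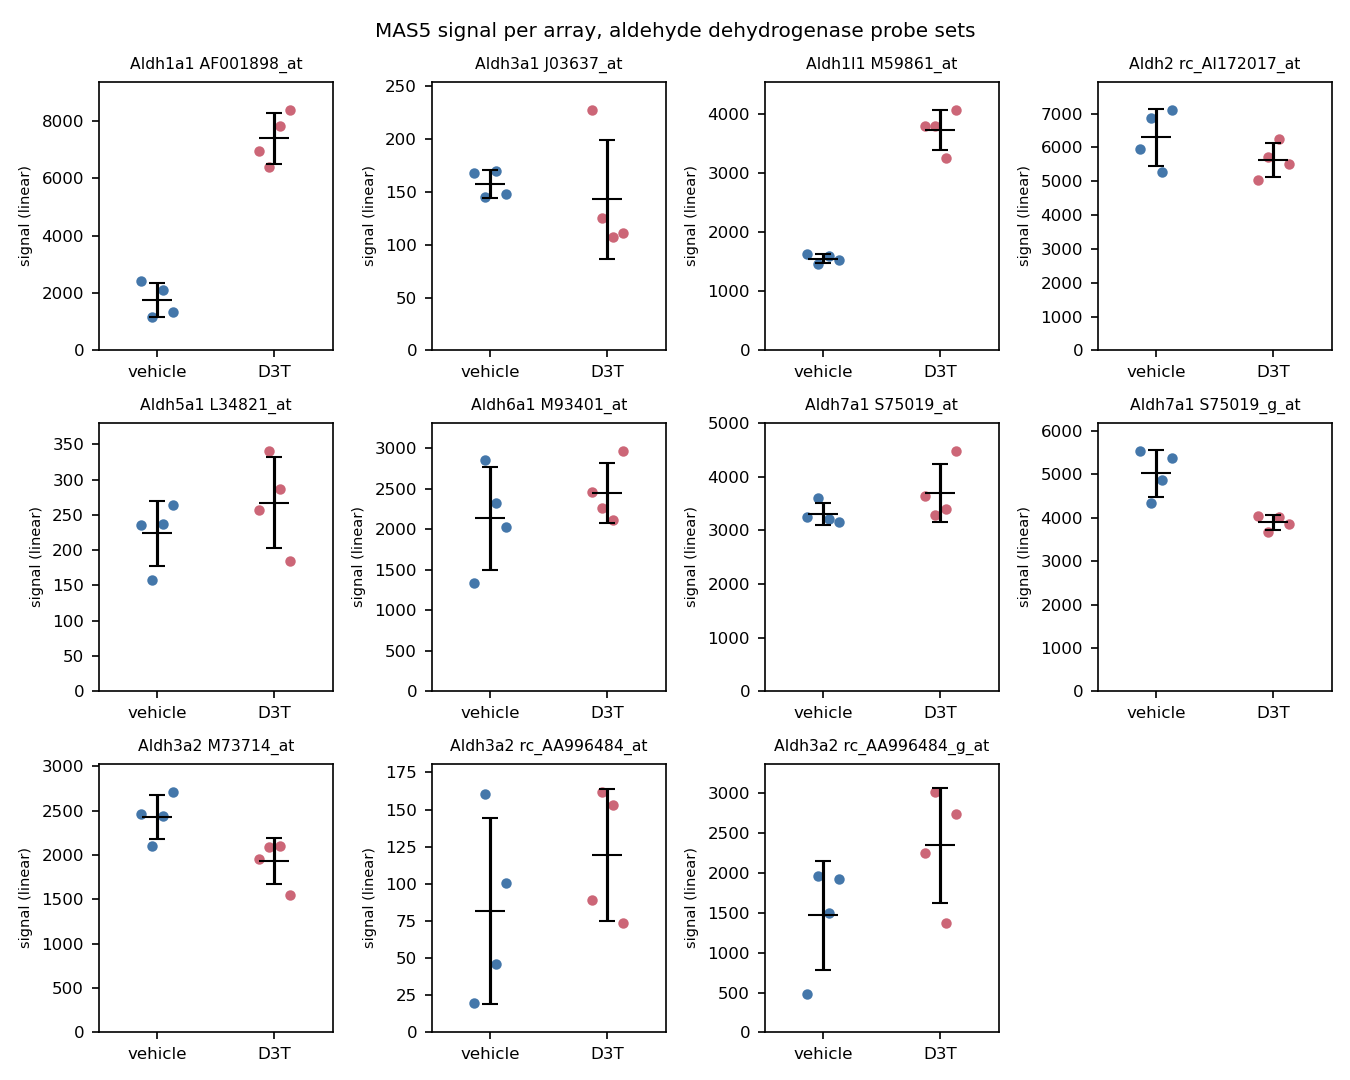
Linear MAS5 signal (y axis, from 0, scaled separately in each panel) of the 11 probe sets in 4 vehicle arrays (blue) and 4 D3T arrays (red), with the mean and SD in black. Aldh1a1 and Aldh1l1 have D3T arrays wholly above the vehicle arrays, from 6394 and from 3256, while Aldh7a1 S75019_g_at and Aldh3a2 M73714_at have D3T arrays wholly below.

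Aldh1a1 (AF001898_at), the retinaldehyde dehydrogenase, gave signals of 2408, 1176, 2107 and 1338 in vehicle replicates 1 to 4 and 6972, 6394, 7835 and 8375 in D3T replicates 1 to 4. The lowest D3T array was thus well above the highest vehicle array. The vehicle arrays fell into a brighter pair, replicates 1 and 3, and a dimmer pair, replicates 2 and 4. Means were 1757 ± 594.1 (SD, n = 4) in vehicle and 7394 ± 882.3 after D3T. The log2 fold change was 2.13 ± 0.22 (SE) and the adjusted p from limma 0.000289. Without vehicle replicate 2, whose dosing days are not given, the log2 fold change was 1.96.

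Aldh1l1 (M59861_at), the folate enzyme, gave 1622, 1457, 1602 and 1523 in vehicle replicates 1 to 4. D3T replicates 1 to 4 gave 3786, 3797, 3256 and 4059. The vehicle arrays were tight, at 1551 ± 75.8 (SD, n = 4), and every D3T array exceeded them, at 3724 ± 337.1. Its log2 fold change was smaller than that of Aldh1a1, at 1.26 ± 0.11 (SE), and its adjusted p from limma was 8.21e-05. The 95% confidence interval of the log2 fold change ran from 1.65 to 2.61 for Aldh1a1, while that of Aldh1l1 started at 1.02 and ended below 1.65.

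The vehicle arrays held the same order for Aldh1a1 and Aldh1l1, with replicate 1 brightest, then 3, 4 and 2. The D3T arrays did not, as replicate 3 was second for Aldh1a1 and last for Aldh1l1. With each group's mean removed, the correlation of their log2 signals over the 8 arrays was 0.42, a description of 8 arrays that share their RNA preparations.

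**Figure D2:**
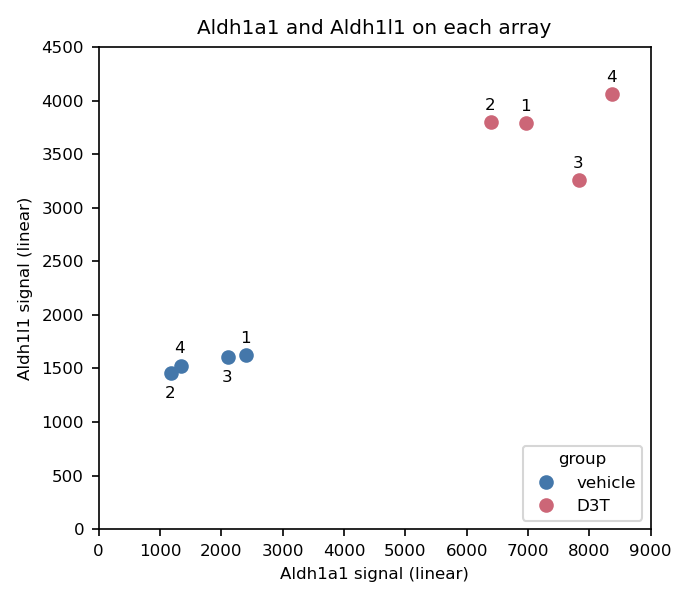
Linear signal of Aldh1a1 (x axis) against Aldh1l1 (y axis) on each array, labelled by replicate number, for 4 vehicle (blue) and 4 D3T (red) arrays. The groups lie apart on both axes, and the vehicle arrays spread from 1176 to 2408 in Aldh1a1 but only from 1457 to 1622 in Aldh1l1.

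Aldh3a1 (J03637_at), the third cytosolic member and the aryl hydrocarbon receptor target, stayed dim. Vehicle replicates 1 to 4 gave 168.0, 145.1, 169.9 and 147.6, and D3T replicates 1 to 4 gave 227.1, 125.3, 107.7 and 111.3. D3T replicate 1 was the brightest of all 8 arrays and the other D3T arrays were dimmer than every vehicle array. The log2 fold change was -0.21 ± 0.27 (SE), with a 95% confidence interval from -0.80 to 0.38, and did not pass. Without D3T replicate 1 it was -0.46.

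Among the mitochondrial enzymes no probe set passed. Aldh2 (rc_AI172017_at), the acetaldehyde dehydrogenase, gave 5940, 6864, 5285 and 7098 in vehicle and 5036, 5715, 6244 and 5497 after D3T. The groups overlapped and the log2 fold change was -0.16 ± 0.12 (SE) (95% confidence interval -0.43 to 0.12).

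Aldh5a1 (L34821_at), succinate semialdehyde dehydrogenase of GABA breakdown, gave 235.6, 158.4, 237.6 and 264.6 in vehicle. It gave 256.7, 340.0, 286.2 and 185.0 after D3T. Overlap was wide, and the log2 fold change was 0.24 ± 0.24 (SE, 95% confidence interval -0.28 to 0.77), and over the fits without 1 array it ran from 0.09 to 0.41. Aldh6a1 (M93401_at), methylmalonate semialdehyde dehydrogenase of valine breakdown, gave 1335, 2861, 2320 and 2024 in vehicle and 2461, 2268, 2116 and 2964 after D3T. Vehicle replicate 1 was its dimmest array, and the log2 fold change was 0.24 ± 0.21 (SE, 95% confidence interval -0.23 to 0.71). Without that array it was 0.03.

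Aldh7a1, known as antiquitin, was read by a pair of probe sets from one transcript record that pointed in opposite directions. S75019_at gave 3247, 3611, 3221 and 3161 in vehicle and 3643, 3287, 3396 and 4474 after D3T, with overlapping groups and a log2 fold change of 0.15 ± 0.12 (SE). S75019_g_at, whose suffix marks probes shared with another probe set, gave 5530, 4339, 4866 and 5383 in vehicle and 4051, 3661, 4008 and 3849 after D3T. All its D3T arrays were below all its vehicle arrays, at a log2 fold change of -0.36 ± 0.11 (SE). Its adjusted p from limma was 0.0571, just outside the threshold. It passed under 4 of 20 alternative settings, with an adjusted p of 0.0261 without vehicle replicate 2, 0.0379 after quantile normalization, 0.0367 over the brightest 30% and 0.0348 with array weights. Over the alternatives its adjusted p ran from 0.0261 to 0.537.

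On each array the ratio of S75019_at to S75019_g_at was 0.587 to 0.832 in vehicle and 0.848 to 1.16 after D3T, so the ratio itself did not overlap between the groups. No direction can be given for the Aldh7a1 transcript from this pair. The correlation of their log2 signals with group means removed was -0.28 over the 8 arrays.

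Aldh3a2, the membrane-bound fatty aldehyde dehydrogenase, was read by 3 probe sets, none of which passed. M73714_at gave 2458, 2108, 2445 and 2708 in vehicle and 1959, 2096, 2107 and 1554 after D3T. The groups only just failed to meet, at 2108 in vehicle replicate 2 and 2107 in D3T replicate 3, and the log2 fold change was -0.34 ± 0.13 (SE, adjusted p from limma 0.125).

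The other Aldh3a2 probe sets had positive fold changes. The signals of rc_AA996484_g_at were 483.3, 1963, 1499 and 1921 in vehicle and 2254, 3011, 1370 and 2745 after D3T. Vehicle replicate 1 lay far below the other vehicle arrays, and without it the log2 fold change went from 0.81 ± 0.42 (SE) to 0.34. The dim rc_AA996484_at gave 19.9, 160.6, 45.9 and 100.7 in vehicle and 89.0, 161.6, 153.2 and 73.4 after D3T, with vehicle replicate 1 at the floor and a log2 fold change of 0.86 ± 0.59 (SE). That value was 0.32 without vehicle replicate 1, 1.31 without vehicle replicate 2, and 0.32 with the floor raised to the 40th percentile.

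With group means removed, the correlation of log2 signals was 0.68 between rc_AA996484_at and rc_AA996484_g_at, and -0.23 between M73714_at and rc_AA996484_g_at, over 8 arrays. Vehicle replicate 1 was the dimmest array for both probe sets from record AA996484, and its weight in the value of 0.68 was not tested. Their D3T arrays did not keep the same order. Replicate 3 was dimmest for rc_AA996484_g_at (1370) but not for rc_AA996484_at (153.2), where replicate 4 was dimmest (73.4, against 2745 for rc_AA996484_g_at). The ratio of M73714_at to rc_AA996484_g_at was 1.07 to 5.09 in vehicle and 0.566 to 1.54 after D3T, with overlap.

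**Figure D3:**
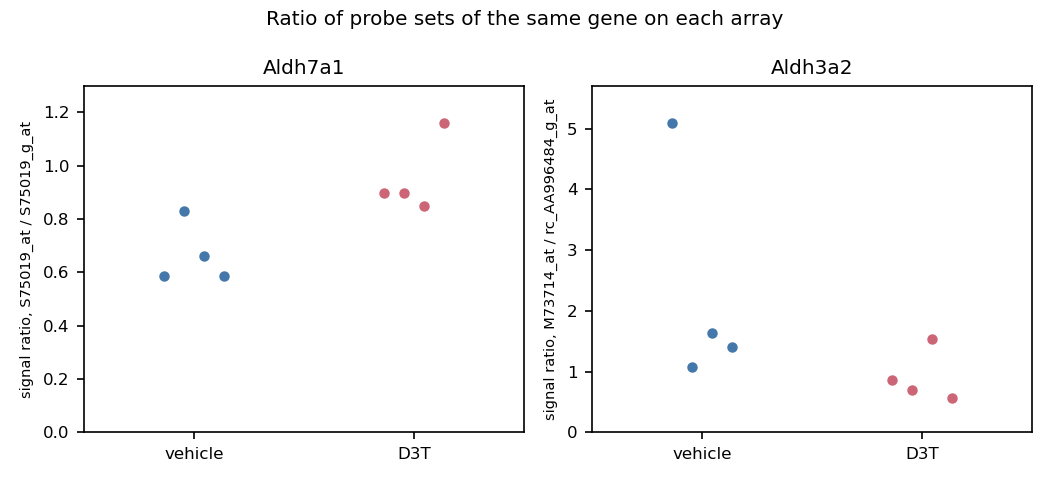
Ratio of the signals of a pair of probe sets of the same gene on each array (y axis, from 0), for Aldh7a1 at left and Aldh3a2 at right, in 4 vehicle (blue) and 4 D3T (red) arrays. The Aldh7a1 ratio is at most 0.832 in vehicle and at least 0.848 after D3T, while the Aldh3a2 ratio overlaps and reaches 5.09 in vehicle replicate 1.

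**Figure D4:**
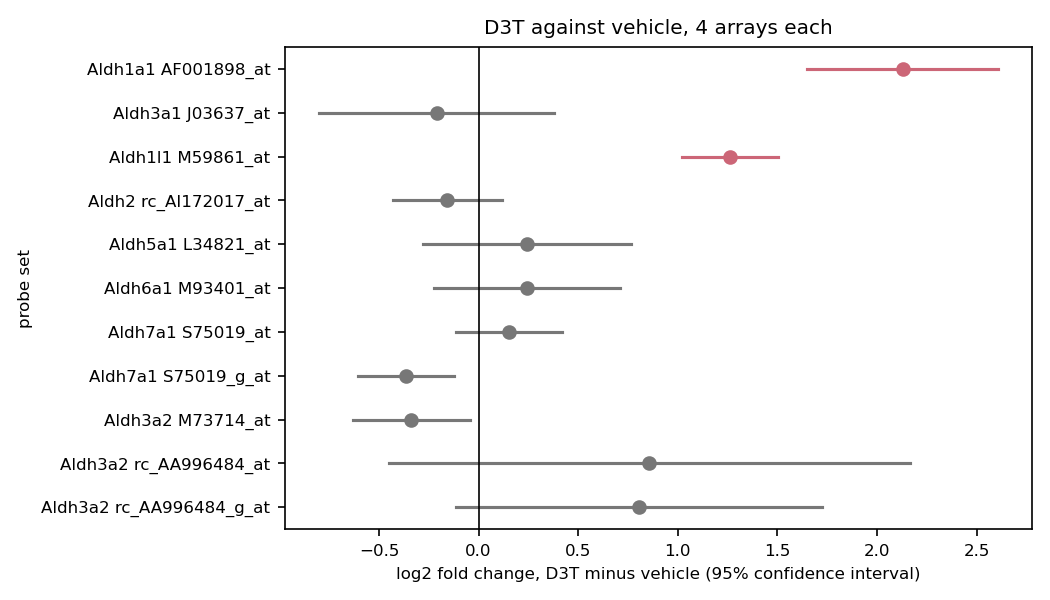
Log2 fold change, D3T minus vehicle (x axis), with its 95% confidence interval from limma for each of the 11 probe sets (y axis), red where the adjusted p was under 0.05. Aldh1a1 at 2.13 and Aldh1l1 at 1.26 lie apart from the other 9, which run from -0.36 to 0.86.

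Other genes that handle alcohols, aldehydes, retinoids and folate were counted with 1 probe set per gene, at which level 3.71% of 3150 genes were higher and 5.84% lower. Of 14 tested oxidoreductases of alcohols and aldehydes outside the family, 4 were higher and 1 lower, with a median log2 fold change of 0.26. Akr7a3, a reductase of aflatoxin aldehydes, was 16.5-fold higher (adjusted p from limma 7.98e-07). The alcohol dehydrogenases Adh1c and Adh4, which make aldehydes that some members of this family remove, were 2.95-fold and 2.48-fold higher (adjusted p from limma 0.00172 and 0.0108).

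Of 9 genes of retinoid metabolism and binding, 2 were higher and none lower (none at an unadjusted p under 0.05 either), with a median of 0.27. Both encode retinoid X receptors, the partners of the receptor for the acid that ALDH1A1 makes. Rxra was 5.55-fold higher, at a log2 fold change of 2.47 ± 0.43 (SE), and Rxrb 1.55-fold higher (adjusted p from limma 0.0343). Rxra was dim in vehicle, and without vehicle replicate 3, its dimmest array at 39.4, its log2 fold change was 2.015. Of 8 genes of folate and one-carbon metabolism, 1 was higher and 2 lower, with a median of 0.10. Sarcosine dehydrogenase (Sardh) was 2.20-fold higher, and dimethylglycine dehydrogenase (Dmgdh) and glycine N-methyltransferase (Gnmt) were 1.61-fold and 1.67-fold lower. All 3 of these handle methyl groups next to the folate pool in which ALDH1L1 acts.

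Of 13 genes for breakdown of the branched-chain amino acids, the pathway of ALDH6A1, 1 was higher and none lower (1 lower at an unadjusted p under 0.05), with a median of -0.04. This was the enoyl-CoA hydratase gene Echs1, 1.55-fold higher with an adjusted p from limma of 0.0496. Of 4 genes for breakdown of GABA and lysine none passed with limma (1 was lower at an unadjusted p under 0.05), with a median of -0.02. Glutamate dehydrogenase (Glud1), the brightest of them, had a log2 fold change of -0.21 ± 0.10 (SE, adjusted p from limma 0.204), and passed as lower with quantile normalization (adjusted p 0.0436). Of its 3 tested probe sets, 1 had a positive fold change.

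Known targets of 3 receptors were counted in the same way. Such lists can hold genes that other factors, Nrf2 among them, also act on. Which factor changed any of these genes was not tested. Of 3 aryl hydrocarbon receptor targets, Nqo1 was 3.44-fold higher and Cyp1a2 2.29-fold lower, 1 did not pass, and the median log2 fold change was -0.13. Of 9 targets of the peroxisome proliferator receptor, which is known to raise Aldh3a2 in rodent liver, the thiolase gene Acaa1b was 3.98-fold higher and the fatty acid hydroxylase gene Cyp4a1 1.68-fold lower by its brightest probe set. Of the 3 tested probe sets of Cyp4a1, 1 had the opposite sign. Of these 9 targets, 7 did not pass, and the median log2 fold change of the 9 was -0.13. At an unadjusted p under 0.05, 1 was higher and 2 were lower. Of 8 targets of the constitutive androstane receptor, 4 were higher and none lower (none at an unadjusted p under 0.05 either), with a median of 0.25. The higher ones were led by the epoxide hydrolase gene Ephx1 at 3.19-fold, Ugt2b1 at 2.02-fold and Cyp2b2 at 1.97-fold.

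Of these 16 named neighbours past the threshold, 4 did not pass in every fit without 1 array. Rxrb passed in 1 and Echs1 in 2 of 8 fits without 1 array, Rxrb only without vehicle replicate 2 and Echs1 only without vehicle replicate 2 or D3T replicate 4. Cyp4a1 lost its call without vehicle replicate 1, 3 or 4 or D3T replicate 1, and Dmgdh without vehicle replicate 3 or 4 or D3T replicate 4 (adjusted p from limma up to 0.0714 and 0.0654). With no filter on dim probe sets Rxra, Ugt2b1, Echs1 and Cyp4a1 did not pass (adjusted p from limma 0.0528, 0.0565, 0.136 and 0.0881). With no intensity trend Echs1 and Cyp4a1 did not (0.0982 and 0.0644), and with the replicate number as a block Rxrb and Echs1 did not (0.0897 and 0.0824). When each array's actin 3'/5' ratio entered the fit, a setting chosen after seeing the data, 13 of the 16 did not pass, and Akr7a3, Acaa1b and Ephx1 did. The SE was larger for all 13, while the fold change was at least as large for 6 of them and smaller for 7. Rxra went from 2.47 ± 0.43 to 2.82 ± 0.71 (log2 fold change and SE), and Cyp1a2 from -1.19 ± 0.20 to -0.65 ± 0.25. Aldh1a1 and Aldh1l1 passed in that fit as well, at log2 fold changes of 2.00 and 1.09 (adjusted p from limma 0.0485 and 0.0221).

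The genes outside the family whose log2 signal was most like that of Aldh1a1 over the 8 arrays were Mif (Pearson's r = 0.994), Acaa1b (0.981), Avpr2 (0.980), Akr7a3 (0.979) and Gsta3 (0.977). The search covered the 3150 genes tested, less the 8 members. The difference between the groups weighs heavily in such values. With group means removed, the correlation with Aldh1a1 was 0.93 for Mif, 0.76 for Acaa1b, 0.87 for Avpr2, 0.80 for Akr7a3 and 0.72 for Gsta3. Mif was 2.10-fold higher after D3T, whereas Avpr2 did not pass (1.43-fold, adjusted p from limma 0.0663). For Aldh1l1, a search added after the data were seen, Ephx1 (0.995), Gsta3 (0.992), Akr7a3 (0.987), Dnph1 (0.986) and Gstp1 (0.983) were most alike. With group means removed these were between 0.06 for Gstp1 and 0.75 for Ephx1.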

How the data were processed

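The deposited values are linear signal intensities of 8799 probe sets on 8 arrays, made with MAS5 by the authors, per the submitters' processing notes. Its version, scaling target and detection calls were not given in the sources used here. Groups and replicate numbers came from the sample titles, and whether the rats were housed or processed in batches is not stated. The 2% trimmed mean of every array was set to 500, and log2 was taken of signals floored at their 20th percentile (20.3). Leaving out 59 control probe sets, the 60% brightest over all arrays (5244) went into limma (version 3.58.1, R version 4.3.3), using lmFit and eBayes with trend. Benjamini-Hochberg adjusted p under 0.05 over all tested probe sets was the threshold. The fit was checked on simulated data.

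Signals printed are rescaled linear signals, and a fold change is 2 raised to the difference of mean floored log2 signals, which understates changes near the floor. Symbols were read from the platform annotation (7006 probe sets with 1 symbol, 308 with several, 1426 with none). The 11 member probe sets matched the RefSeq gene table of GRCr8 by gene identifier, and promoter windows were found there for 6 of the 8 members, by symbol. Named genes were all members, the 5 genes most alike to Aldh1a1, and up to 3 genes past the threshold, by size of fold change, in each of 8 neighbour lists (otherwise the brightest), with 1 probe set per gene, the brightest tested. The members and lists were chosen with earlier results of these data known. Same-numbered arrays of both groups did not deviate together (correlations of -0.20 to 0.06), so no pairing was used. Alternatives changed the scaling, floor, filter, variance model, array weights and block, left out each array in turn, and, chosen after seeing the data, added each array's actin 3'/5' ratio to the fit.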

Additional observations from a re-analysis of the deposited data

How the results depend on the processing

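Under all 20 alternatives 2 probe sets of the family were higher, Aldh1a1 with log2 fold changes of 1.96 to 2.30 and Aldh1l1 with 1.09 to 1.32. No probe set of the family was lower by limma in the main setting, and 1, S75019_g_at of Aldh7a1, was lower with quantile normalization, over the brightest 30%, with array weights and without vehicle replicate 2 (0 to 1 over the fits without 1 array). When each array's actin 3'/5' ratio entered the fit, a setting chosen after seeing the data, the log2 fold changes of Aldh2 (0.041), Aldh6a1 (-0.233) and S75019_at of Aldh7a1 (-0.087) changed sign without passing. The other 7 probe sets kept their direction and their side of the threshold in every alternative in which they were tested, although in the actin fit rc_AA996484_g_at of Aldh3a2 went from 0.81 to 0.04 and M73714_at from -0.34 to -0.05. Of all probe sets 560 passed, against 309 with no filter, 333 with no intensity trend, 290 with the replicate number as a block, 31 with the actin ratio and 240 to 695 without 1 array. The losses by over 1.5 times came without vehicle replicate 1 (260), 3 (240) or 4 (301) and without D3T replicate 1 (279) or 4 (307). The block changed no call of the family, and the cause of these shifts was not tested.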

Other observations

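With group means removed, the log2 signals of the 8 members, each by its brightest tested probe set, gave correlations from -0.76 to 0.95 over the 28 pairs and 8 arrays. The extremes, chosen after their values were seen, were Aldh6a1 with S75019_g_at of Aldh7a1 (-0.76) and Aldh5a1 with M73714_at of Aldh3a2 (0.95). Neither of these probe sets moved with the others of its gene. The same correlation was -0.28 between S75019_g_at and S75019_at. For M73714_at it was -0.23 with rc_AA996484_g_at and 0.09 with rc_AA996484_at. The extremes thus belong to single probe sets and are not shown for Aldh7a1 or Aldh3a2 as genes. Aldh2 had negative values with all 3 cytosolic members, at -0.62 with Aldh1a1, -0.65 with Aldh1l1 and -0.63 with Aldh3a1. These describe 8 arrays, in which all probe sets of an array share 1 RNA sample and 1 scaling.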
